A study of Mus musculus with 5 samples.

Results

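The N4bp2l1 and Zar1l locus is a stretch of mouse chromosome 5 that holds 4 neighbouring genes, Zar1l, Brca2, N4bp2l1 and N4bp2l2. The members are neighbouring genes listed by name, and the list was drawn up with earlier methylation results of these libraries in view, out of 21900 protein coding genes in the RefSeq gene table. The levels that chose them are given as a description with no test. With 5 kb on either side the locus spans chr5:150502055-150670748 (mm10), 168.7 kb.

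DNA methylation was measured at CpG cytosines by reduced representation bisulfite sequencing, which samples mostly CpG-rich fragments, in 5 mouse tissues of the C57BL/6x129S6 background. The control was muscle. The 4 others were teratomas, tumours of mixed differentiated tissue that arise from pluripotent cells, obtained after embryonic stem cells from different cultures had been injected into tetraploid embryos. Their culture conditions carry the labels P5_2iL, P5_2iL_F, P5_a2iL_1 and P5_LCDM_1, names without further explanation there. The labels give neither age nor sex. Each of the 5 groups is 1 library, so tumour, animal, library and culture condition cannot be told apart and no difference has a replicate check.

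In mammalian genes the cytosines of dense CpG clusters at gene starts are usually unmethylated in all tissues, while sparse CpGs elsewhere are mostly methylated. The DNA beside such a cluster, its shore, often differs in methylation between cell types. Zar1l encodes a relative of Zar1, an RNA-binding protein of the egg needed for the passage to the embryo. Brca2 encodes a protein needed for the repair of broken DNA by homologous recombination. N4bp2l1 and N4bp2l2 encode relatives of N4bp2, a binding partner of the ubiquitin ligase Nedd4, and the human N4BP2L2 protein has been described as a partner of the blood transcription factor GFI1.

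Brca2 lies on the plus strand and the other 3 genes on the minus strand, so the right-hand end of Zar1l, N4bp2l1 and N4bp2l2 is the 5′ end. RefSeq promoter sequences (GRCm38.p6, called mm10 in genome browsers) were available for all 4 members, from 250 bases before to 50 bases after the annotated start. The 3 below are shown because they set the dense starts of N4bp2l1 and Brca2 beside the sparse start of Zar1l. Each is written 5′ to 3′ on the strand of its gene, and capitals mark CpG dinucleotides.
N4bp2l1, chr5:150594476-150594775, minus strand: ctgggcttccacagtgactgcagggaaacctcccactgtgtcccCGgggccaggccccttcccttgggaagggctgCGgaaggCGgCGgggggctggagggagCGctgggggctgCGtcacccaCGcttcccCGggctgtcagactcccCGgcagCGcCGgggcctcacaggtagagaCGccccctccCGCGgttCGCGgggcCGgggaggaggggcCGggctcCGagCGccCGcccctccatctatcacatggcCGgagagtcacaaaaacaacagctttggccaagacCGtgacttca
Brca2, chr5:150522371-150522670, plus strand: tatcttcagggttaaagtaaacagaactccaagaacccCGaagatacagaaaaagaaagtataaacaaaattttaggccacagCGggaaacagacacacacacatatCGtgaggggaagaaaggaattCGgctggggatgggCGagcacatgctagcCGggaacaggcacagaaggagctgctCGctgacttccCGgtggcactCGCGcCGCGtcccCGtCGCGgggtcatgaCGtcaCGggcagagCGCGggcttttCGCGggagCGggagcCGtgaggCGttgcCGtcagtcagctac
Zar1l, chr5:150518110-150518409, minus strand: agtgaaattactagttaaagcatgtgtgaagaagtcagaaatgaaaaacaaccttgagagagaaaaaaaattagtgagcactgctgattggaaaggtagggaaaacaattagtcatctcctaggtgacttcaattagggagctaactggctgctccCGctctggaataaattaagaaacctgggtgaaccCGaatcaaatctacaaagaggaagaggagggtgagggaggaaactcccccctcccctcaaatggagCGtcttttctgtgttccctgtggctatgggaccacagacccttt

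The N4bp2l1 sequence held 23 CpGs at a GC content of 70.3%, and the Brca2 sequence 25 at 56.7%. The N4bp2l2 start, chr5:150665563-150665862 on the minus strand, held 16 CpGs at 52.7%. The median over all 32851 RefSeq promoter sequences was 7 CpGs. The Zar1l sequence held 3 CpGs, and 23.3% of promoter sequences held fewer. The Brca2 sequence also holds TGACGTCA, the palindromic cAMP response element, which reads alike on both strands and is found in 588 promoter sequences, or 1.79% of them. This match is a description and not a shown binding site.

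These annotated starts showed next to no methylation wherever they were measured. Within the N4bp2l1 sequence 17 cytosines were listed in all 5 libraries. Their mean level was 0% in muscle, P5_2iL and P5_a2iL_1, 0.894% in P5_2iL_F and 1.02% in P5_LCDM_1. Within the Brca2 sequence 35 cytosines were shared, with means from 0% in P5_2iL_F to 0.816% in P5_a2iL_1. Both cytosines of the CpG inside TGACGTCA, at -17 and -16 relative to the start, were at 0% in all 5 libraries. The 11 shared cytosines of the N4bp2l2 sequence had means from 0% to 1.30%. No cytosine of the Zar1l sequence was listed in any library, so its start was not measured.

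The muscle file listed 4017125 cytosines and the teratoma files 4446459 to 5323090. In the locus 803 cytosines were listed in at least 1 library and 363 in all 5. Over these 363 the level averaged 35.3% in muscle, 33.7% in P5_2iL, 33.3% in P5_2iL_F, 31.9% in P5_a2iL_1 and 33.4% in P5_LCDM_1. Over all shared autosomal cytosines it ranged from 42.7% in muscle to 49.5% in P5_2iL. Read counts do not accompany the percentages, so depth is unknown and intervals could not be computed. The spread between the 2 strands of a CpG, the one error measure within a library, was 15.2 percentage points per cytosine in muscle, 11.6 in P5_2iL, 12.3 in P5_2iL_F, 12.6 in P5_a2iL_1 and 15.3 in P5_LCDM_1 over 100 CpGs of the locus. It leaves out the spread between animals. The 100 CpGs include 13, 30 and 13 around the starts of Brca2, N4bp2l1 and N4bp2l2, where levels were near 0%. They also include the CpGs at 150582514 and 150582663, whose strands lay far apart in every library. In P5_2iL these strands were at 92% and 0%, and at 0% and 100%. The spread is thus not the error at the gene ends that differed.

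Gene ends were read from 1000 bp outside to 500 bp inside each end in the RefSeq gene table, over cytosines listed in all 5 libraries. Of the 8 member ends 5 had 3 or more such cytosines. The 3′ ends of Zar1l, Brca2 and N4bp2l1 had none. The 5′ end of Brca2 was low in every library, at 0.260% in muscle, 0.160% in P5_2iL, 0.856% in P5_2iL_F, 0.595% in P5_a2iL_1 and 0.521% in P5_LCDM_1 over 48 cytosines. The 5′ end of N4bp2l2 was low as well, at 0% in muscle and P5_2iL_F, 0.690% in P5_2iL, 0.985% in P5_a2iL_1 and 1.72% in P5_LCDM_1 over 29 cytosines. The libraries differed by under 2 percentage points at both of these ends.

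At the listed 5′ end of N4bp2l1 the teratomas were lower than muscle. Its 5 shared cytosines averaged 89.5% in muscle, 11.7% in P5_2iL, 0% in P5_2iL_F, 4% in P5_a2iL_1 and 56.7% in P5_LCDM_1. Every cytosine was lower than in muscle in all 4 teratomas. In a tissue of mixed cells, a lower share of methylated cells and a lower level in each cell cannot be told apart. In muscle the 5 values ran from 75% to 100%, in P5_2iL from 0% to 50%, in P5_a2iL_1 from 0% to 20% and in P5_LCDM_1 from 50% to 66.7%. These ranges did not overlap with that of muscle. Neighbouring cytosines within a library are not replicates, so the ranges do not measure error. The differences from muscle were -77.9, -89.5, -85.5 and -32.9 percentage points. On the 2 CpGs read on both strands, the first strand differed from muscle by -90.9, -90.9, -90.9 and -40.9 points and the second by -83.3, -87.5, -77.5 and -20.8, in the same order of teratomas.

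Those 5 cytosines belong to 3 CpGs within 57 bp, chr5:150599564-150599620. They lie outside N4bp2l1, 886 to 942 bp beyond its listed end, and 5039 to 5095 bp upstream of the start in the promoter table. They are 311 to 367 bp from the listed 3′ end of N4bp2l2, in the 1252 bp between both genes, and all 5 also belong to the window of that end. The N4bp2l2 3′ end was thus not an independent reading. Its 12 cytosines averaged 71.5% in muscle, 6.14% in P5_2iL, 3.85% in P5_2iL_F, 12.8% in P5_a2iL_1 and 50% in P5_LCDM_1. All 12 were lower than in muscle in P5_2iL and P5_2iL_F, 11 in P5_a2iL_1 and 8 in P5_LCDM_1. In P5_LCDM_1 the first strand lay -50.3 points from muscle and the second 3.67 points above it, over 5 CpGs, so the strands disagreed there.

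The 5′ end of Zar1l separated the libraries in another way. Its 5 shared cytosines averaged 100% in muscle, 97.1% in P5_2iL, 88.9% in P5_2iL_F, 23.3% in P5_a2iL_1 and 56% in P5_LCDM_1. All 5 cytosines were below muscle in P5_a2iL_1, where they ran from 0% to 50%, and in P5_LCDM_1, where they ran from 40% to 60%. In P5_2iL 1 of 5 was below muscle, and in P5_2iL_F 3 of 5. The differences from muscle were -2.86, -11.1, -76.7 and -44 percentage points. On the first strand P5_a2iL_1 and P5_LCDM_1 lay -100 and -50 points from muscle, and on the second -66.7 and -40, over 2 CpGs.

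These Zar1l cytosines belong to 3 CpGs within 25 bp, chr5:150517736-150517760, from 399 to 423 bp downstream of the annotated start and inside the gene. The next shared cytosine, at chr5:150517669 and just outside the window, placed muscle lowest instead of highest, at 0% in muscle, 100% in P5_2iL, P5_2iL_F and P5_a2iL_1 and 60% in P5_LCDM_1. The window from 1000 bp upstream to 500 bp downstream of the annotated start takes it in, and there the levels were 83.3% in muscle, 97.6% in P5_2iL, 90.7% in P5_2iL_F, 36.1% in P5_a2iL_1 and 56.7% in P5_LCDM_1. P5_2iL alone listed 8 more cytosines of this gene end, all at 100%.

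**Figure D1:**
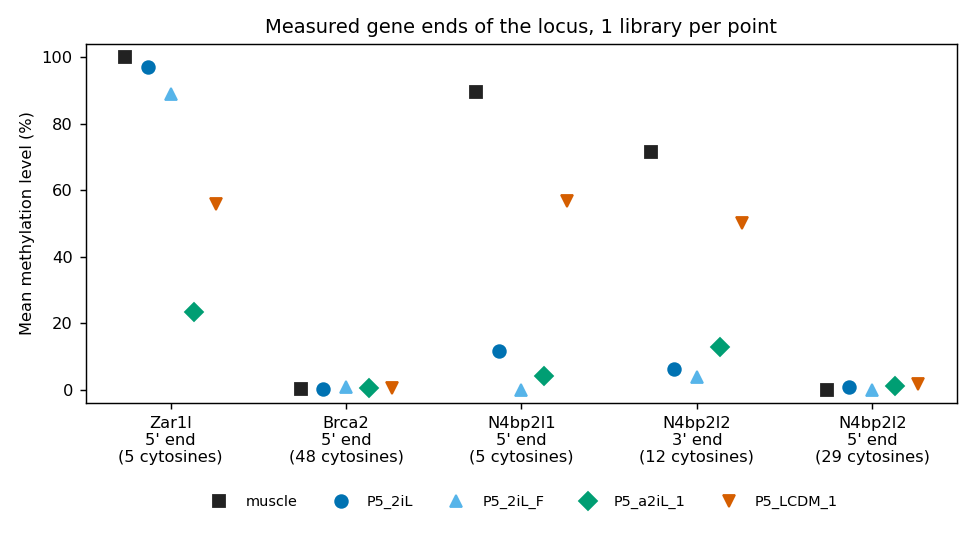
Mean methylation level (%) of the 5 measured gene ends of the locus, with 1 point per library and the number of shared cytosines under each end. The Brca2 5′ end and the N4bp2l2 5′ end stayed under 2% in every library, the N4bp2l1 5′ end and the N4bp2l2 3′ end (which share 5 cytosines) were highest in muscle, and at the Zar1l 5′ end P5_a2iL_1 was lowest at 23.3%.

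A size rule set these values beside the rest of the genome. It asks for a difference of 25 percentage points or more with 3 or more shared cytosines. Against muscle, 2 of the 5 member ends were lower by this rule in P5_2iL, 2 in P5_2iL_F, 3 in P5_a2iL_1 and 2 in P5_LCDM_1, and 0 were higher. Over 17825 autosomal gene ends 1.59%, 1.42%, 1.18% and 1.58% were lower in these comparisons, and 7.37%, 7%, 4.71% and 4.89% were higher. The members were chosen on this contrast, so nothing is read from their counts. The values nearest the limit were both from P5_LCDM_1, -32.9 points at the N4bp2l1 5′ end inside it and -21.5 at the N4bp2l2 3′ end outside it. At the N4bp2l1 5′ end 17 gene ends, itself included, were as low or lower in P5_2iL, 4 in P5_2iL_F, 1 in P5_a2iL_1 and 159 in P5_LCDM_1. For Zar1l these numbers were 1483, 624, 2 and 49. The 4 comparisons share the muscle library, so that library enters every difference.

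**Figure D2:**
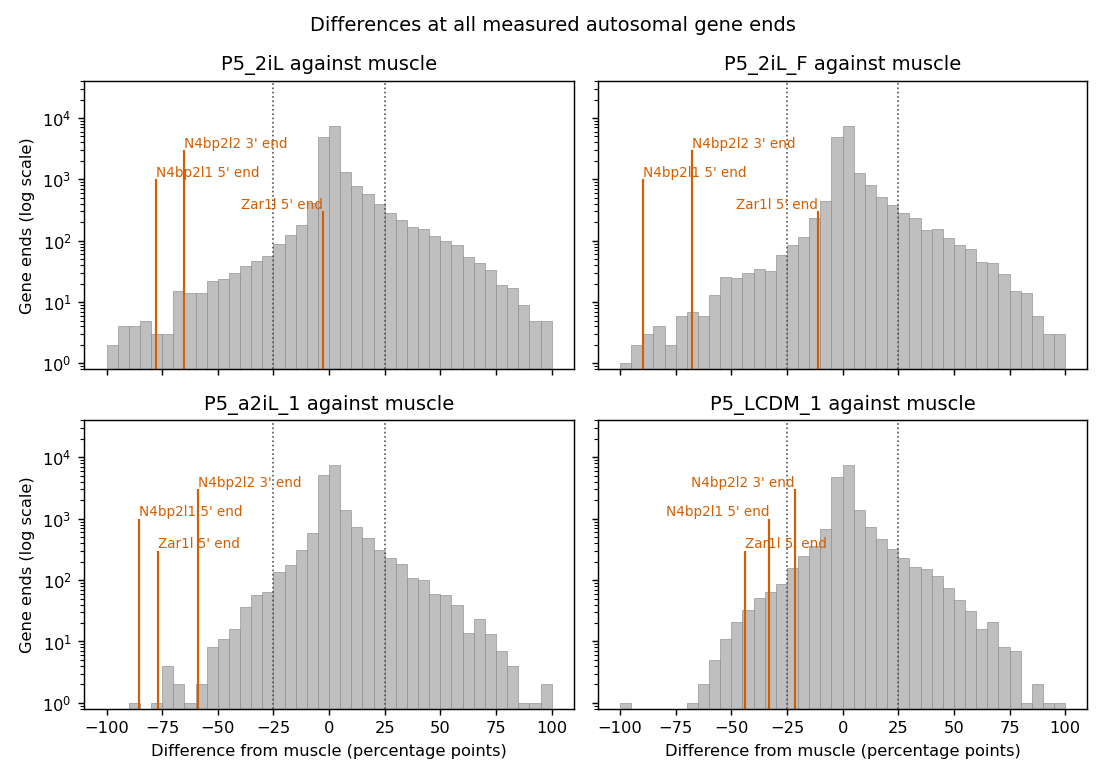
Histograms of the difference from muscle (percentage points, bins of 5) at 17825 autosomal gene ends, with the number of gene ends on a log axis and 1 panel per teratoma. Orange lines mark the 3 member ends away from 0 and dotted lines mark 25 points: the N4bp2l1 5′ end lay at -77.9, -89.5, -85.5 and -32.9 points, and the Zar1l 5′ end passed the limit in P5_a2iL_1 and P5_LCDM_1.

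Comparisons between teratomas do not use the muscle library. P5_2iL_F and P5_2iL differed by 25 points at 0 of the 5 member ends, where 0.286% of all gene ends were lower and 0.303% higher. P5_LCDM_1 lay 45 points above P5_2iL and 56.7 above P5_2iL_F at the N4bp2l1 5′ end, and 43.9 and 46.2 above them at the overlapping N4bp2l2 3′ end. Gene ends higher by the rule made up 1.75% and 1.55% of all in these comparisons. P5_LCDM_1 was also higher than P5_a2iL_1 at these ends, by 52.7 and 37.2 points, and at the Zar1l 5′ end, by 32.7 points, over a background of 1.85% higher and 2.21% lower. In the window around the annotated Zar1l start, which takes in a further cytosine, this last difference was 20.6 points, short of the limit. At the Zar1l 5′ end P5_a2iL_1 lay -73.8 points from P5_2iL and -65.6 from P5_2iL_F, with 2.67% and 2.03% of all gene ends lower and 1.34% and 1.07% higher. P5_LCDM_1 lay -41.1 and -32.9 points from them there, over 4.13% and 3.53%. No test was possible between single libraries.

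The listed cytosines fall into runs, and those around the N4bp2l1 start show where the libraries parted. Runs were separated by gaps of more than 300 bp. The run over the start, chr5:150593460-150594991, held 114 shared cytosines, with means of 1.67% in muscle, 1.22% in P5_2iL, 1.26% in P5_2iL_F, 0.748% in P5_a2iL_1 and 3.85% in P5_LCDM_1. The CpG cluster of N4bp2l1 was thus low in muscle and teratomas alike. Its edge inside the gene was not at 0 everywhere. The cytosine at 150593460 was at 42.9% in P5_LCDM_1, 7.14% in muscle, 3.33% in P5_2iL_F and 0% in P5_2iL and P5_a2iL_1. At its upstream edge, 150594991, muscle was at 0% and the teratomas at 25% in P5_2iL, 15.8% in P5_2iL_F, 21.4% in P5_a2iL_1 and 23.1% in P5_LCDM_1. Of the 114 cytosines 11 lay between 20% and 80% in P5_LCDM_1, against 3 in muscle, 3 in P5_2iL, 2 in P5_2iL_F and 1 in P5_a2iL_1.

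Both sides of this cluster were more methylated in muscle than in the teratomas. Inside N4bp2l1, downstream of the start, a run of 21 shared cytosines (chr5:150592132-150592810) had a mean of 87.7% in muscle, 53.8% in P5_2iL, 50.8% in P5_2iL_F, 54.8% in P5_a2iL_1 and 63.2% in P5_LCDM_1. The decline in this run was uneven. Near its outer edge, at 150592177, all 5 libraries were at 100%. The 6 shared cytosines nearest the cluster, from 150592609 to 150592810, ran from 41.7% to 100% in muscle, 0% to 5.26% in P5_2iL, 0% to 25% in P5_2iL_F, 36.8% to 63.2% in P5_a2iL_1 and 36% to 50% in P5_LCDM_1. P5_2iL and P5_2iL_F lay below every other library at all 6.

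Upstream of the start, 1021 to 1135 bp away, the 5 shared cytosines of a short run (chr5:150595546-150595660) averaged 52.0% in muscle, 0% in P5_2iL, 5.82% in P5_2iL_F, 16.7% in P5_a2iL_1 and 26.7% in P5_LCDM_1. In muscle its cytosines ran from 0% to 100% and in P5_LCDM_1 from 0% to 100% as well, so these overlapped. At 150595601 and 150595602, the strands of 1 CpG, P5_LCDM_1 was at 100% and 0% and muscle at 100% and 38.5%. Further upstream follow the cytosines between N4bp2l1 and N4bp2l2 described above.

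**Figure D3:**
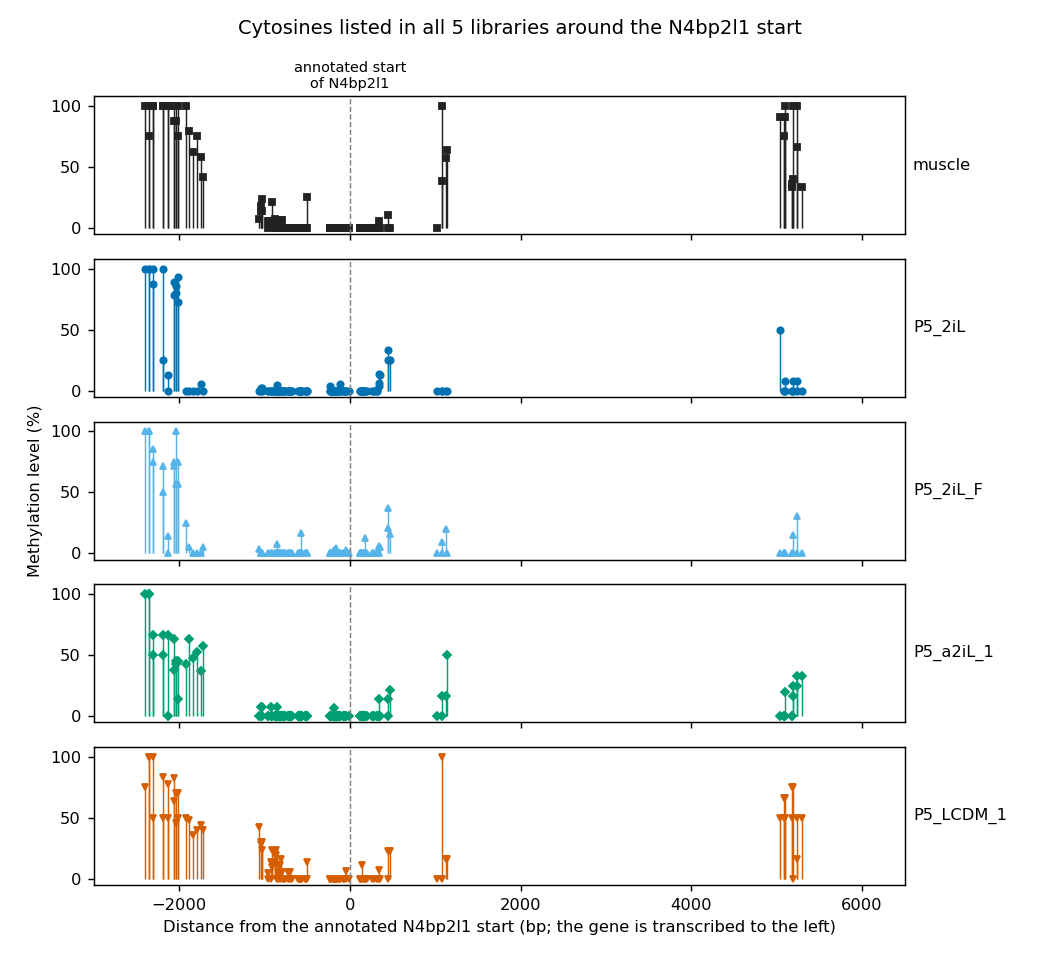
Methylation level (%) of each cytosine listed in all 5 libraries against its distance (bp) from the annotated N4bp2l1 start, with 1 panel per library. All libraries are near 0% around the start, while most cytosines on both sides are high in muscle. Nearest the cluster inside the gene, from -1916 to -1715 bp, P5_2iL stays at 5.26% or less, and P5_LCDM_1 runs from 36% to 50%. Farther into the gene both reach 100%.

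Away from the starts of Brca2 and N4bp2l2, the rest of the locus was mostly methylated in every library. Within Brca2 the run at chr5:150569135-150569518, near its 3′ end, averaged 85.7% in muscle and 85.1% to 94.4% in the teratomas over 30 cytosines. Within N4bp2l2 the run at chr5:150606296-150606475 was at 95.5% to 98.6% in all 5 libraries over 8 cytosines. A run of 6 cytosines within N4bp2l1 (chr5:150582143-150582664) was at 62.4% to 65.7% in every library, and its cytosines ranged from 0% to 100% in each. None of its cytosines lay between 20% and 80% in any library. At 150582515 and 150582663 every library was at 5.56% or less, while the other strand of each CpG was at 83.3% or more. The run at chr5:150580717-150581420, with 4 cytosines in N4bp2l1, was at 68.2% in muscle, 88.9% in P5_2iL, 89.2% in P5_2iL_F, 60.8% in P5_a2iL_1 and 52.4% in P5_LCDM_1.

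Some runs of the locus went the other way. Beside the N4bp2l2 start, the 6 shared cytosines of chr5:150663928-150664239 averaged 41.7% in muscle, 72.3% in P5_2iL, 74.3% in P5_2iL_F, 64.9% in P5_a2iL_1 and 56.9% in P5_LCDM_1. All 6 were higher than in muscle in P5_2iL and P5_2iL_F, 4 in P5_a2iL_1 and 5 in P5_LCDM_1. At the far left, beside the noncoding RNA gene Gm5, the 15 shared cytosines of chr5:150502115-150502824 averaged 49.4% in muscle, 91.6% in P5_2iL, 81.6% in P5_2iL_F, 75.2% in P5_a2iL_1 and 55.7% in P5_LCDM_1. All 15 were higher than in muscle in P5_2iL and P5_2iL_F, 13 in P5_a2iL_1 and 6 in P5_LCDM_1. In Zar1l, 4 cytosines at chr5:150512033-150512411 were at 60.2% in muscle and 78.0% to 88.0% in the teratomas.

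Of 21 measured 1 kb tiles of the locus 3 were lower by the size rule in P5_2iL and 2 higher, over shares of 3.1% lower and 17.4% higher among 208207 autosomal tiles. In P5_2iL_F 3 were lower and 3 higher (2.92% and 16.1% of all tiles), in P5_a2iL_1 4 and 1 (2.89% and 11.1%), and in P5_LCDM_1 2 and 1 (6.76% and 9.37%). The lower tiles of P5_2iL and P5_2iL_F were those starting at 150592001, 150595001 and 150599001, and P5_a2iL_1 added the Zar1l tile at 150517001. In P5_LCDM_1 the lower tiles were 150517001 at -26.7 points and 150595001 at -25.3, while 150592001 at -24.5 and 150599001 at -21.5 missed the limit. The lower tiles hold the cytosines of runs and gene ends given above and are no separate reading. The members were chosen with such levels in view, so nothing is read from the tile counts. The median difference over the 21 tiles was between -0.236 and 0.595 points in the 4 comparisons.

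**Figure D4:**
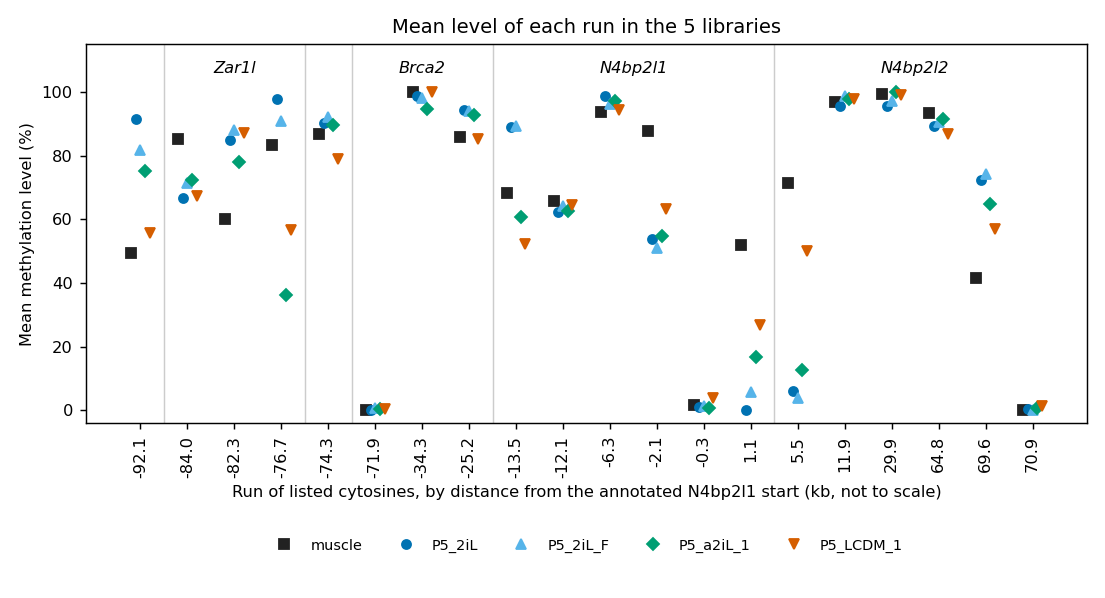
Mean methylation level (%) of the 20 runs with 3 or more shared cytosines, in genomic order and labelled by distance (kb) from the annotated N4bp2l1 start, with 1 point per library and the runs outside the 4 genes unlabelled. The starts of Brca2, N4bp2l1 and N4bp2l2 are near 0% in every library, the runs on both sides of the N4bp2l1 start and the run between N4bp2l1 and N4bp2l2 are highest in muscle, and the leftmost run and the one beside the N4bp2l2 start are lowest in muscle.

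**Figure D5:**
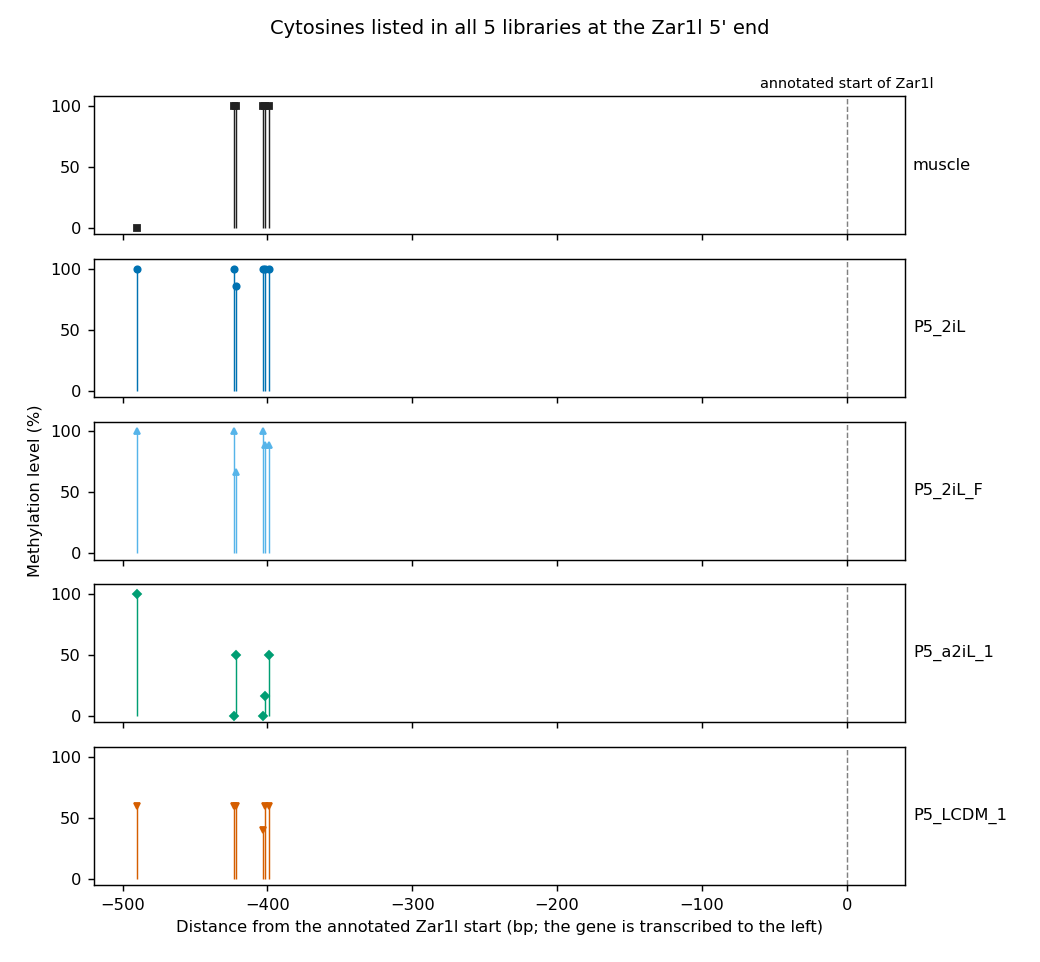
Methylation level (%) of each cytosine listed in all 5 libraries near the Zar1l 5′ end against its distance (bp) from the annotated start, with 1 panel per library. The 5 cytosines of the gene end window are low in P5_a2iL_1 and between 40% and 60% in P5_LCDM_1, and the cytosine farthest from the start is at 0% in muscle and at 60% to 100% in the teratomas.

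Other gene ends with levels like those of the N4bp2l1 5′ end were sought among 16618 autosomal gene ends with 5 or more shared cytosines, by Euclidean distance over the 5 libraries. The nearest was an end of Nt5dc2 on chromosome 14, at 91.7% in muscle, 4.76% in P5_2iL, 0% in P5_2iL_F, 17.2% in P5_a2iL_1 and 51.2% in P5_LCDM_1, at a distance of 16.0 points. Ends of Ripor2, Itgb2 and Rara lay at 34.5, 35.5 and 37.6 points. Ripor2 encodes an inhibitor of RhoA, Itgb2 the leukocyte integrin beta chain and Rara a retinoic acid receptor. The end of Ripor2, over 22 cytosines, was at 77.6% in muscle, 1.92% in P5_2iL, 7.31% in P5_2iL_F, 30.8% in P5_a2iL_1 and 43.1% in P5_LCDM_1. The likeness is over 5 single libraries and is a description.

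The gene families of the members were read at their annotated starts. All 5 genes of the N4BP family (N4bp1, N4bp2, N4bp3, N4bp2l1 and N4bp2l2) were measured, with means over the family of 0.50% in muscle and 0.529% to 0.805% in the teratomas, and 0 passed the size rule in any comparison with muscle. Of 21 homologous recombination genes 15 were measured and 0 passed. Rad51c, named after its values were seen, came nearest. It was at 63.0% in muscle and 76.8% to 85.2% in the teratomas over 49 cytosines. Of 20 egg genes 6 were measured. In P5_a2iL_1 2 of these were lower than muscle, Zar1l and Zp3, the latter a gene of the egg coat at 45.8% against 75% over 4 cytosines. In P5_LCDM_1 Zar1l was lower, and in P5_2iL and P5_2iL_F 0 passed. Zar1l is itself a member of the locus, listed with such levels in view, so its place in this list is no separate reading. The members also enter the means and medians of their lists. Among 17756 annotated promoter windows 1.59%, 1.41%, 0.918% and 1.53% were lower in P5_2iL, P5_2iL_F, P5_a2iL_1 and P5_LCDM_1, and 6.62%, 6.05%, 4.32% and 4.25% higher.  Zar1 itself, named after its values were seen, was at 0.532% in muscle and 1.01% to 5.26% in the teratomas. The median difference from muscle was 0 to 0.260 points for the recombination list, 0 to 0.250 for the N4BP family and -3.32 to 4.88 for the egg genes, beside 0.210 to 0.266 for all genes.

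Markers of tissue were read in the same windows. Of 12 skeletal muscle genes 7 were measured, with a mean level of 41.9% in muscle and 65.6% to 78.9% in the teratomas. Of these 7, 6 were lower in muscle than in every teratoma, Mb being the other. The share of all genes with that order was not computed. By the size rule 5, 5, 2 and 2 of the 7 were higher than muscle in P5_2iL, P5_2iL_F, P5_a2iL_1 and P5_LCDM_1, and 0 lower. Of all annotated promoter windows 6.62%, 6.05%, 4.32% and 4.25% were higher. Of 10 leukocyte genes 3 were measured, with a mean of 40.1% in muscle, 0.622% in P5_2iL, 1.34% in P5_2iL_F, 21.3% in P5_a2iL_1 and 24.9% in P5_LCDM_1. In the same order Arhgap30 was at 81.0%, 0.952%, 0%, 44.6% and 44.7%. Vav1 was at 38.9%, 0.582%, 2.78%, 14.5% and 21.1%, and Lcp1 at 0.449%, 0.332%, 1.24%, 4.71% and 8.89%. The leukocyte mean and the N4bp2l1 5′ end were both highest in muscle and lower in P5_2iL and P5_2iL_F than in P5_LCDM_1, while in P5_a2iL_1 the former was at 21.3% and the latter at 4%. Of 6 endothelial genes 4 were measured, with means of 24.7%, 5.15%, 6.06%, 29.4% and 6.06%. The part of leukocyte or other cells in the values of this locus was not tested.

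Of 19 other genes within 500 kb of the locus, 10 gene ends were measured and 3 passed the rule against muscle in at least 1 teratoma, all by higher levels. These were the right end of Gm5, whose 16 cytosines take in the 15 of the run described above and are no separate reading, an end of the pseudogene Gm18753 at 59.6% in muscle and 82.3% to 90.3% in the teratomas, and an end of the relaxin family receptor gene Rxfp2 at 66.7% in muscle and 81.7% to 96.8% in the teratomas. Rxfp2 passed in P5_a2iL_1 alone. Over autosomal ends of protein coding genes 7.37%, 7%, 4.71% and 4.89% were higher by the rule in P5_2iL, P5_2iL_F, P5_a2iL_1 and P5_LCDM_1. No share was computed for passing in at least 1 teratoma or for noncoding genes, so nothing is read from this count. The left end of Fry was at 0% in muscle and 0.154% to 1.23% in the teratomas over 59 cytosines. That of Pds5b, which encodes a cohesin regulator, was at 3.20% in muscle and 2.43% to 5.63% in the teratomas over 32.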

How the data were processed

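The files deposited by the authors hold 1 methylation level in percent for each listed CpG cytosine, strand by strand, without read counts. The submitters' processing notes name Bismark, Trim Galore 0.6.4 and the build mm10. For Bismark no version, and no coverage minimum, is given in the sources used here. Inside RefSeq promoter sequences 480203 listed cytosines were compared with the bases: 100% lay at a CpG when the start column was counted from 1, and 56.2% when counted from 0, so positions were taken as counted from 1. Levels are unweighted means over cytosines listed in all 5 libraries, at gene ends, around annotated starts, in 1 kb tiles and in runs. The planned intervals need read counts and were not computed, and the size rule of 25 percentage points is not a test. The background used 19 autosomes.

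The members, lists, windows and settings were chosen with earlier results of these data known, and the runs and the windows at annotated starts were added after these values were seen. The text names the 4 members at both ends, their tiles and runs, neighbours within 500 kb, the 5 gene ends most like the N4bp2l1 5′ end (1 of them is not reported here), and at most 4 members of a list past the rule, with exceptions stated where they occur. Computation used pandas 2.3.3 and NumPy 2.4.6 under Python 3.11.15, with matplotlib 3.10.9 for plots, and the window code was tested on simulated data.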

Additional observations from a re-analysis of the deposited data

How the results depend on the processing

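No paired analysis was possible because each group holds 1 library. Of the single gene end differences under other settings 217 kept their side of the limit, 3 lost the call and 2 gained it. On the first strand P5_LCDM_1 against P5_2iL_F and against P5_a2iL_1 at the N4bp2l2 3′ end fell to 24.1 and 23.3 points and lost it. The other loss was P5_LCDM_1 against muscle at the N4bp2l1 5′ end, under a limit of 40 points. The tally includes the Brca2 and N4bp2l2 5′ ends, which were near 0% in every library and far from the limit throughout. Some settings left the same cytosines in place. A setting that left an end with too few cytosines has no entry, so the tally does not measure how stable the calls are. No called difference in this tally changed sign, but 3 uncalled ones did. These were P5_LCDM_1 against muscle at the N4bp2l2 3′ end (-21.5 to 3.67 points, second strand), P5_2iL_F against P5_2iL there (-2.30 to 6.15, first strand) and P5_a2iL_1 against P5_2iL at the N4bp2l2 5′ end (0.296 to -0.238, cytosines listed in that pair). The counts of lower member ends against muscle (2, 2, 3 and 2 in P5_2iL, P5_2iL_F, P5_a2iL_1 and P5_LCDM_1) moved as follows. A window of 500 bp on either side gave 1 in P5_2iL, P5_2iL_F and P5_LCDM_1 and 2 in P5_a2iL_1, since the N4bp2l1 cytosines then lie outside it. The median over cytosines gave 3 in P5_LCDM_1. The first strand alone gave 1 in each teratoma, and the second 1, 1, 1 and 0. On either strand N4bp2l1 and Zar1l keep under 3 cytosines, and in P5_LCDM_1 the 1 on the first strand is the N4bp2l2 3′ end, at -50.3 points. A minimum of 10 cytosines, which removes the same ends, gave 1, 1, 1 and 0. A limit of 40 points gave 1 in P5_LCDM_1. Windows at the annotated starts, added after the data were seen, gave 0, 0, 1 and 1. They are not in the tally of single differences. There N4bp2l1 differed from muscle by 1.40, 1.18, 0.242 and 0.700 points, in the same order of teratomas. Its calls were thus lost and their sign reversed. Between teratomas, each strand alone gave 0 where P5_a2iL_1 and P5_LCDM_1 were lower than P5_2iL or P5_2iL_F at 1 end.

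For tiles, a limit of 40 points gave 1 higher in P5_2iL and 0 higher in the other teratomas. It gave 2 lower in each of P5_2iL, P5_2iL_F and P5_a2iL_1 and 0 lower in P5_LCDM_1. In P5_LCDM_1 a grid shifted by 500 bp gave 2 higher and a minimum of 5 cytosines 0. Read depth is unknown, and the called ends of N4bp2l1 and Zar1l rest on 5 cytosines each, the fewest among the measured member ends.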
